A study of Mus musculus with 20 samples.

Results

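The libraries described here are the 5 of the series' 20 whose deposited name holds both the word for control and the code N1, and all 5 are labelled as not injected. They were chosen by that name alone, with no measured value. Each holds gene counts of polyA RNA from lumbar dorsal root ganglia of an adult C57Bl6 mouse, taken 1 month after tamoxifen. The series as a whole sampled 10 animals, each with a formalin and a noninjected library, and asked what the loss of Prdm12 does in an inflammatory setting. Every animal, controls included, carries floxed Prdm12 alleles (P12 Fl/Fl) and received tamoxifen (TAM), so none of the 5 is an untreated wild type. The other library of each animal is from a formalin-injected condition, and the labels do not say whether the noninjected ganglia lay on the opposite side.

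The genotype of the 5 libraries is recorded in 2 ways that disagree. The titles of 3 libraries read control (Control 2, a female, and Control 3 and Control 5, males), with the genotype P12 Fl/Fl TAM. The titles of the other 2 read icKO (icKO 2 and icKO 3, both females), with the genotype AdvCreERT2; P12 Fl/Fl TAM, although their deposited names hold the word for control. AdvCreERT2 is a tamoxifen-inducible Cre recombinase, and the prefix Adv is not spelled out in the labels. The series text names a Rosa26-driven CreERT2 instead, and which of them applies was not settled from the labels. Libraries are named below by title, values of all 5 are given in the order Control 2, Control 3, Control 5, icKO 2 and icKO 3, and several list sums that are highest in the libraries titled icKO are also given as the mean of the 3 titled control. Both were females while 2 of the 3 titled control were males, so sex is uneven between the titles.

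A dorsal root ganglion holds the cell bodies of the sensory neurons that carry touch, position, temperature, itch and pain from the body to the spinal cord. Each neuron is wrapped by satellite glia, its axon is ensheathed by Schwann cells, and the ganglion also holds connective tissue, blood vessels and resident macrophages. Large myelinated neurons serve touch and position sense, while many small neurons, the nociceptors, respond to damaging stimuli and divide into a peptidergic class that makes neuropeptides and a non-peptidergic class. Prdm12 encodes a transcription factor of the nociceptor lineage, Avil encodes advillin, an actin-binding protein of sensory neurons, and Nefh encodes the heavy neurofilament subunit of large neurons.

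The libraries held 13758401 to 16902967 counts and 25622 to 26715 genes with at least 1 count. Levels are CPM, counts per 1000000 counts of the library, and 3 counts corresponded to 0.177 to 0.218 CPM. Rankings and sums in CPM follow gene length as well as level, and levels of different genes are compared per length, as TPM, transcripts per 1000000, which divides counts by exonic length before scaling. The sex label of 5 of 5 libraries matched its sex-linked genes, and no 2 libraries were identical. Across genes, which are not independent replicates, the log2 levels of library pairs correlated with a Pearson r of 0.976 to 0.988.

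Counts of the targeted gene and of both neuronal markers were found in every library. Counts are per whole gene, so they do not tell whether the floxed part of Prdm12 was intact in any library. Prdm12 (ENSMUSG00000079466) stood at 101, 76.8, 95.9, 76.6 and 82.2 CPM, a mean of 86.5 ± 11.4 CPM (SD, n = 5). The level in icKO 2 lay just under that of Control 3, the lowest titled control, and icKO 3 lay among the titled controls, whose mean was 91.3 CPM. Per length it stood at 122 ± 19.1 TPM. Avil read 775, 715, 875, 757 and 849 CPM and Nefh read 1657, 1778, 2186, 1509.7 and 2058 CPM. The highest library exceeded the lowest by 1.32 times for Prdm12, 1.22 times for Avil and 1.45 times for Nefh. Genes beside Avil on its chromosome were read as well: Tsfm ranged from 12.3 to 14.4 CPM, Cdk4 from 45.3 to 57.1 CPM and Ctdsp2 from 68.6 to 84.2 CPM over the 5 libraries. Tsfm stood at 12.4 CPM in icKO 2 and 13.8 CPM in icKO 3, within the 12.3 to 14.4 CPM of the titled controls.

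A mean of 1 CPM or more was reached by 15751 genes, of which 14207 are protein coding, and 14836 reached 1 CPM in every library. The 10 highest genes held 6.97% of the counts, the 100 highest held 20.03% ± 0.81 (SD, n = 5) and the 1000 highest held 48.8%. The 30 highest genes included 6 mitochondrially encoded genes, 8 of the 20 genes on the list of general neuronal genes and 0 ribosomal protein genes. In every library alike, 23 of the 30 highest and 86 of the 100 highest genes of the mean were also among the highest 30 and 100.

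The mitochondrial genome led the counts. Its genes took 5.31% ± 0.90 (SD, n = 5) of the counts, from 4.46% in the library titled icKO 3 to 6.85% in Control 3. The cytochrome oxidase gene mt-Co1 stood at 14817, 18846, 14854, 14825 and 13219 CPM, and the cytochrome b gene mt-Cytb at 11211, 15049, 11093, 11560 and 9931 CPM. Control 3 was the highest library for both. Of the 13 protein genes of the mitochondrial genome, 7 stood at a mean of 1602 CPM or more, and 5 (mt-Co2, mt-Co3, mt-Atp6, mt-Atp8 and mt-Nd4l) are listed at 0 in every library, although all 13 encode parts of the oxidative phosphorylation system that cells use together. In 4 of these 5 genes nearly all sequence is repeated in other annotated genes. When each gene's transcripts were cut into windows of 50 bases, read on either strand, 100% of those of mt-Co2, 99.9% of mt-Co3 and 99.5% of mt-Atp6 also occurred in another gene, as did 98.8% for mt-Nd4l and 97.99% for mt-Nd3, which stood at 0.431 CPM. The share was 0% for mt-Cytb and mt-Nd1 and did not exceed 62.2% (mt-Nd4) among the 7 abundant genes, but it was also 0% for mt-Atp8, which is listed at 0. Only annotated transcripts were compared, so copies elsewhere in the genome were not counted. The part that the handling of reads from repeated sequence played was not tested.

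Levels of common reference genes follow from the same counts, and these genes also hold sequence repeated in other genes. The part of such sequence in their levels was not tested. Actb, the cytoplasmic actin, stood at 962 ± 33.1 CPM, and Eef1a1, a translation factor, at 941 ± 101 CPM. The glycolytic genes Gapdh and Pgk1 stood at 95.02 ± 5.78 and 15.2 ± 1.12 CPM, and Ppia, a cyclophilin, at 65.3 ± 6.16 CPM. The share of repeated windows was 9.12% for Actb, 40.4% for Eef1a1, 25.1% for Gapdh, 53.9% for Pgk1 and 17.3% for Ppia, against a median of 0.459% over all genes at a mean of 1 CPM or more. Ribosomal protein genes summed to 0.636% of the counts, with a median repeated share of 24.0% over 89 genes. The marker lists of sensory neuron classes, glia, fibroblasts and perineurium had medians of 0% to 0.376%.

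Outside the mitochondrial genome, the highest counts came from neuronal, glial and connective-tissue genes together. Apod, a lipid carrier of fibroblasts and Schwann cells, stood at 4538, 7208, 3489, 5243 and 3395 CPM, with Control 3 at 2.12 times the lowest library. Map1b, a microtubule protein of axons, read 4005, 3369, 4544, 3672 and 5041 CPM, and Nefl, the light neurofilament subunit, 2540.3, 3012, 3203, 2448 and 3141 CPM. Apoe, the lipid carrier made by satellite glia and macrophages, read 3317, 3876, 2975, 3344 and 2914 CPM. The ganglion's own noncoding RNA was abundant too: Meg3, an imprinted long noncoding RNA, stood at 5920.3, 4328, 4114, 4678 and 4194 CPM and Snhg11, a host transcript of small nucleolar RNAs in neurons, at 3734, 3043, 2744, 3203 and 2873 CPM, and in both Control 2 was the highest library. Fstl1, which encodes a secreted glycoprotein, stood at 2654 ± 273 CPM.

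A gene ID without a name in the tables at hand, ENSMUSG00000119584, took the fourth place with 5835, 4180, 3183, 12530 and 6695 CPM, a CV of 56.3%. Its highest library was icKO 2, at 3.94 times Control 5. Mir6236, a short annotated RNA, was also highest in icKO 2 and lowest in Control 5, with 186, 141, 125, 417 and 182 CPM.

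**Figure D1:**
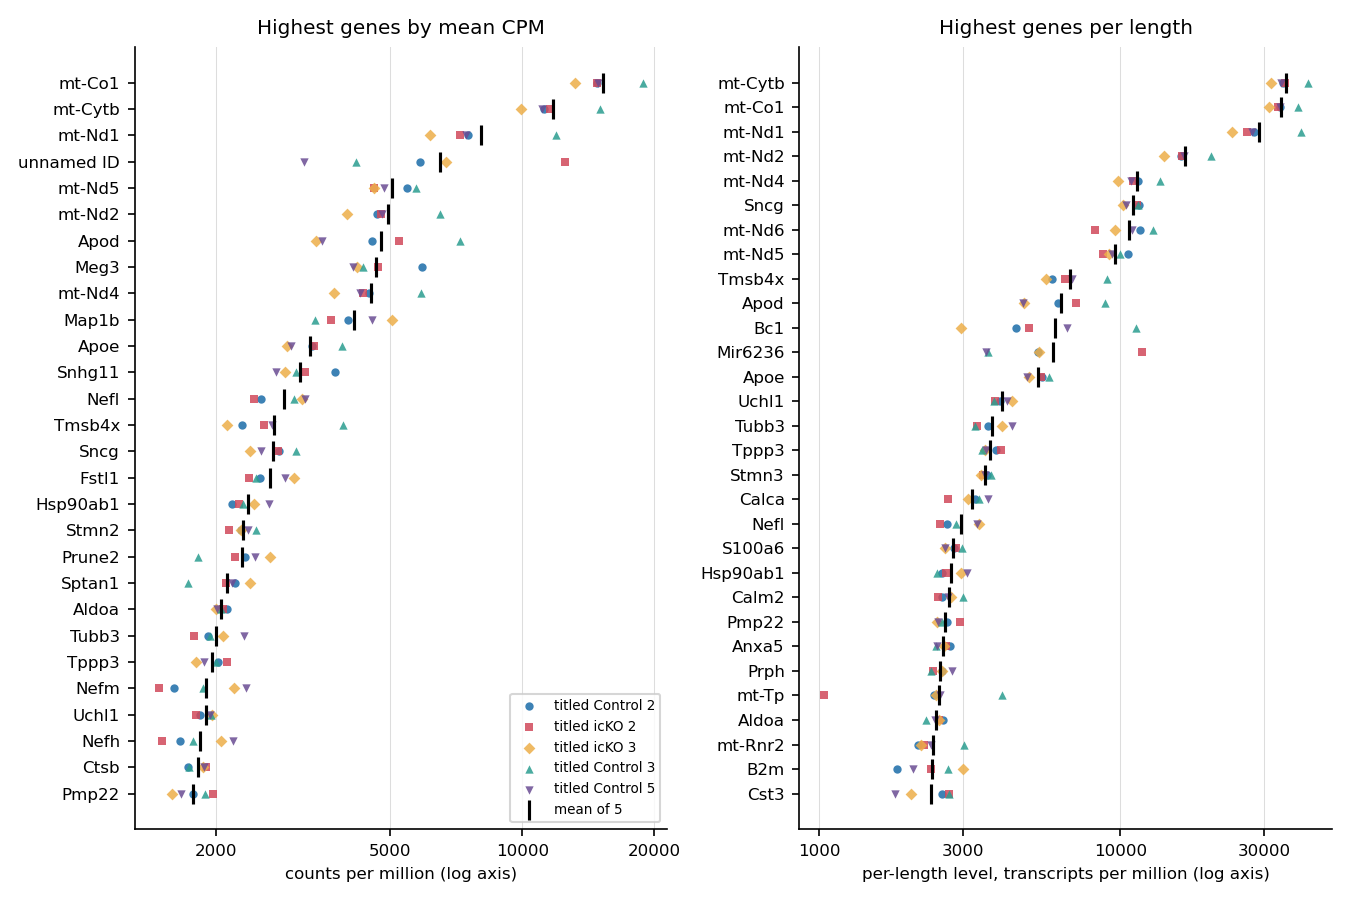
Left, CPM (log axis) of genes with the highest mean; right, TPM (log axis) of genes with the highest level per length, some genes of the left ranking not being drawn; symbols are the 5 libraries by title and the black bar is their mean. Mitochondrially encoded genes lead both panels, and Sncg, Tmsb4x and Apod lead the remaining genes per length. The unnamed ID spreads from 3183 to 12530 CPM and has no length at hand, so it is absent from the right panel.

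Per length, the order of abundant genes changed. The abundant unnamed ID has no length at hand, so it could not be placed in this order. Among genes outside the mitochondrial genome with a length, Sncg, which encodes gamma-synuclein of peripheral neurons, led with 11000 ± 606 TPM. Tmsb4x, an actin-sequestering peptide gene, followed with 6816 ± 1340.3 TPM and Apod with 6358 ± 1736 TPM. Bc1, a short cytoplasmic noncoding RNA of neurons, stood at 6072 ± 3208 TPM with its highest value in Control 3. The ubiquitin hydrolase gene Uchl1 stood at 4038 ± 236 TPM, the neuronal tubulin gene Tubb3 at 3736 ± 462 TPM and Tppp3, a tubulin polymerisation gene, at 3692 ± 229.6 TPM. Calca, which encodes the calcitonin gene-related peptide, reached 3226 ± 352 TPM and was the highest neuropeptide gene. Long transcripts moved down: Map1b stood at 909 ± 185 TPM and Meg3 at 893 ± 156 TPM. Tubb3 and Tppp3, neighbours in this order, differed by less than the SD of either, as did Tmsb4x, Apod and Bc1.

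General neuronal genes were steady across animals. The 20 listed genes summed to 25445, 26321, 28573, 23957 and 28105 CPM, a mean of 26480 ± 1903 CPM (SD, n = 5) with a coefficient of variation (CV, SD over mean) of 7.19%, and 20 of 20 were above 1 CPM. Uchl1 and the adhesion gene Thy1 were the steadiest of them, with 1838, 1949.9, 1945, 1801 and 1956 CPM and 571, 559.7, 566, 530 and 564 CPM. Stmn2, a tubulin-binding gene of growing axons, read 2279, 2473, 2369.7, 2149 and 2282 CPM, and Prph, the intermediate filament peripherin of small neurons, 1450.2, 1479, 1568, 1370.3 and 1405 CPM. The neurofilament genes varied more: Nefm read 1603, 1876, 2343, 1484 and 2207 CPM, lowest in icKO 2 and highest in Control 5, as were Nefl and Nefh. Rbfox3, which encodes the neuronal nuclear marker NeuN, stood at 89.3 ± 6.86 CPM, and Ina, a neurofilament-like gene of central neurons, at 23.7 ± 3.16 CPM.

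The list of sensory-lineage transcription factors was steady, with a CV of the sum of 5.40%. Avil, which encodes an actin-binding protein, was counted in it and gave 794 CPM of the mean sum of 2241 CPM. Apart from Avil, the highest per length was Klf7, a zinc-finger gene of neurons, with 126 ± 16.3 TPM. Prdm12 with 122 ± 19.1 TPM and Isl1 with 120.3 ± 11.98 TPM were next. These 3 genes differed by less than the SD of any of them. Isl1 and Pou4f1, the homeodomain genes shared by sensory neurons, read 149, 138, 145, 119 and 135 CPM and 109.7, 112, 115, 100.1 and 108 CPM. Prrxl1, a homeobox gene of pain circuits, stood at 111 ± 9.79 CPM and Runx1, a factor of non-peptidergic neurons, at 82.5 ± 8.21 CPM. Runx3, its relative in position-sense neurons, stood at 4.56 ± 0.424 CPM. Neurog1, which acts in embryonic neurogenesis, remained at 0.225 CPM, near the level of 3 counts. Within the PRDM family, Prdm12 was the highest of 15 genes per length, ahead of Prdm4 with 30.5 ± 3.34 TPM and Prdm2 with 26.6 ± 4.37 TPM, while Prdm13 and Prdm14 are listed at 0.

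Hox genes, which mark position along the body, were largely detected. Of 39 genes 32 reached 1 CPM, and their sum had a CV of 4.66%. Per length the highest was Hoxa10 with 39.6 ± 3.17 TPM, followed by Hoxd8 with 27.3 ± 1.69 TPM and Hoxa9 with 27.2 ± 2.45 TPM, which differed by less than their SD. The terminal genes Hoxa13, Hoxb13, Hoxc13 and Hoxd13, which mark the tail end of the body, are listed at 0 in every library. Hoxd10, a gene of lumbar levels, read 13.05, 10.2, 6.75, 5.84 and 3.49 CPM, highest in Control 2 and lowest in icKO 3.

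Marker genes of each sensory neuron class were detected in all 5 libraries. Because lists differ in number and in gene length, their sums describe a class across libraries and do not give shares of cells, and in such bulk samples fewer cells of a type and less RNA per cell cannot be told apart. The 16 genes of large-fibre neurons summed to 3429, 3383, 3807, 3228 and 3999 CPM and the 10 genes of peptidergic nociceptors to 2830.5, 3138, 2939, 2215 and 2531 CPM. The 10 genes of non-peptidergic nociceptors summed to 1484, 1380.1, 1759, 1703 and 1727 CPM. The peptidergic sum was lowest in icKO 2 and highest in Control 3, whereas the non-peptidergic sum was lowest in Control 3 and highest in Control 5.

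Within the large-fibre list, Pvalb, a calcium-binding protein of position-sense neurons, stood at 76.6, 77.9, 73.2, 74.3 and 86.8 CPM and Ntrk3, the receptor for neurotrophin-3, at 384, 271, 307, 352 and 403 CPM. Among peptidergic genes, Tac1, which encodes substance P, read 375, 550, 368, 269 and 329 CPM with Control 3 above the others. Mrgprd, a receptor gene of non-peptidergic endings in skin, read 122, 101, 152, 136 and 151 CPM and the ATP receptor gene P2rx3 140, 133, 198, 162 and 179.6 CPM. Control 3 was the lowest library for both. Smaller classes were visible through Th, the tyrosine hydroxylase of C-low-threshold mechanoreceptors, with 166, 115, 117, 158 and 113 CPM, and Trpm8, the cold receptor, with 62.8, 41.1, 50.7, 46.2 and 54.8 CPM.

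Itch neurons were represented by Nppb, a natriuretic peptide gene, with 23.8, 23.7, 22.0, 22.4 and 15.2 CPM and Mrgpra3, a receptor for itch compounds, with 20.6, 22.7, 27.6, 23.6 and 17.2 CPM. Il31ra, the receptor for the itch cytokine interleukin-31, was lower in Control 3 than in the rest, with 34.8, 14.5, 34.1, 42.03 and 34.1 CPM. Sst, somatostatin, read 6.395, 2.04, 2.62, 9.44 and 6.27 CPM and was lowest in the males. Sympathetic neurons left little trace: of 7 markers only Slc18a2, a monoamine transporter also used by other cells, passed 1 CPM, and the noradrenaline enzyme gene Dbh stood at 0.0678 CPM.

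Sodium channel subunits were led by those of nociceptors. Per length, Scn10a and Scn11a, the tetrodotoxin-resistant channels Nav1.8 and Nav1.9, stood at 455 ± 73.7 and 351 ± 50.2 TPM, and Scn7a, a sodium-sensing channel also found in Schwann cells, at 412 ± 54.9 TPM. Scn10a and Scn7a differed by less than the SD of either. Scn9a, which encodes Nav1.7, stood at 161 ± 21.1 TPM, within the SD of the accessory subunit gene Scn4b with 173 ± 32.2 TPM. The channels of large axons were lower, with 56.5 ± 11.1 TPM for Scn1a and 37.2 ± 6.56 TPM for Scn8a, while the embryonic Scn3a stood at 2.86 ± 0.56 TPM. All 14 listed subunits passed 1 CPM.

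Among potassium channels, Kcnd1, an A-type channel, Kcnt1, a sodium-activated channel, and Kcna2, a channel of myelinated axons, led with 165 ± 22.9, 141 ± 18.5 and 139 ± 20.6 TPM, of which Kcnt1 and Kcna2 differed by less than their SD. Hcn2, a pacemaker channel, stood at 38.7 ± 7.33 TPM. The calcium channel list was led by accessory subunits, Cacnb3 with 139.8 ± 15.02 TPM and Cacna2d1, the binding site of gabapentin, with 90.1 ± 10.3 TPM. Of the pore-forming subunits, Cacna1b, the N-type channel of sensory terminals, was highest with 67.7 ± 9.02 TPM, and Cacna1h, a T-type channel, stood at 27.1 ± 5.31 TPM. The muscle and retina channels Cacna1s and Cacna1f stayed under 1 CPM.

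Sensors of heat, irritants and touch were ordered as follows. Trpv1, the capsaicin receptor, stood at 241, 175, 168, 143 and 165 CPM, with Control 2 above the other 4, and led the TRP family per length with 168 ± 36.7 TPM. Trpa1, the irritant receptor, and Trpv2 followed with 69.9 ± 9.0 and 67.1 ± 4.42 TPM and differed by less than the SD of Trpa1. The acid-sensing Asic3 stood at 224 ± 26.8 TPM, and Piezo2, the touch channel, at 105 ± 11.8 TPM, whereas Piezo1, which serves vessels and other tissues, stood at 3.98 ± 1.75 TPM. P2rx3 led the ATP receptors with 203 ± 40.3 TPM, and no other P2X gene exceeded 22.1 TPM (P2rx6). Stoml3, a touch-modulating gene, was at 0.108 CPM, under the level of 3 counts. Mrgprd stood at 147 ± 29.4 TPM, above Mrgprx1 and Mrgpra3 with 59.9 ± 14.2 and 59.8 ± 9.99 TPM. The median repeated share over the 7 receptors of this family was 1.35%.

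**Figure D2:**
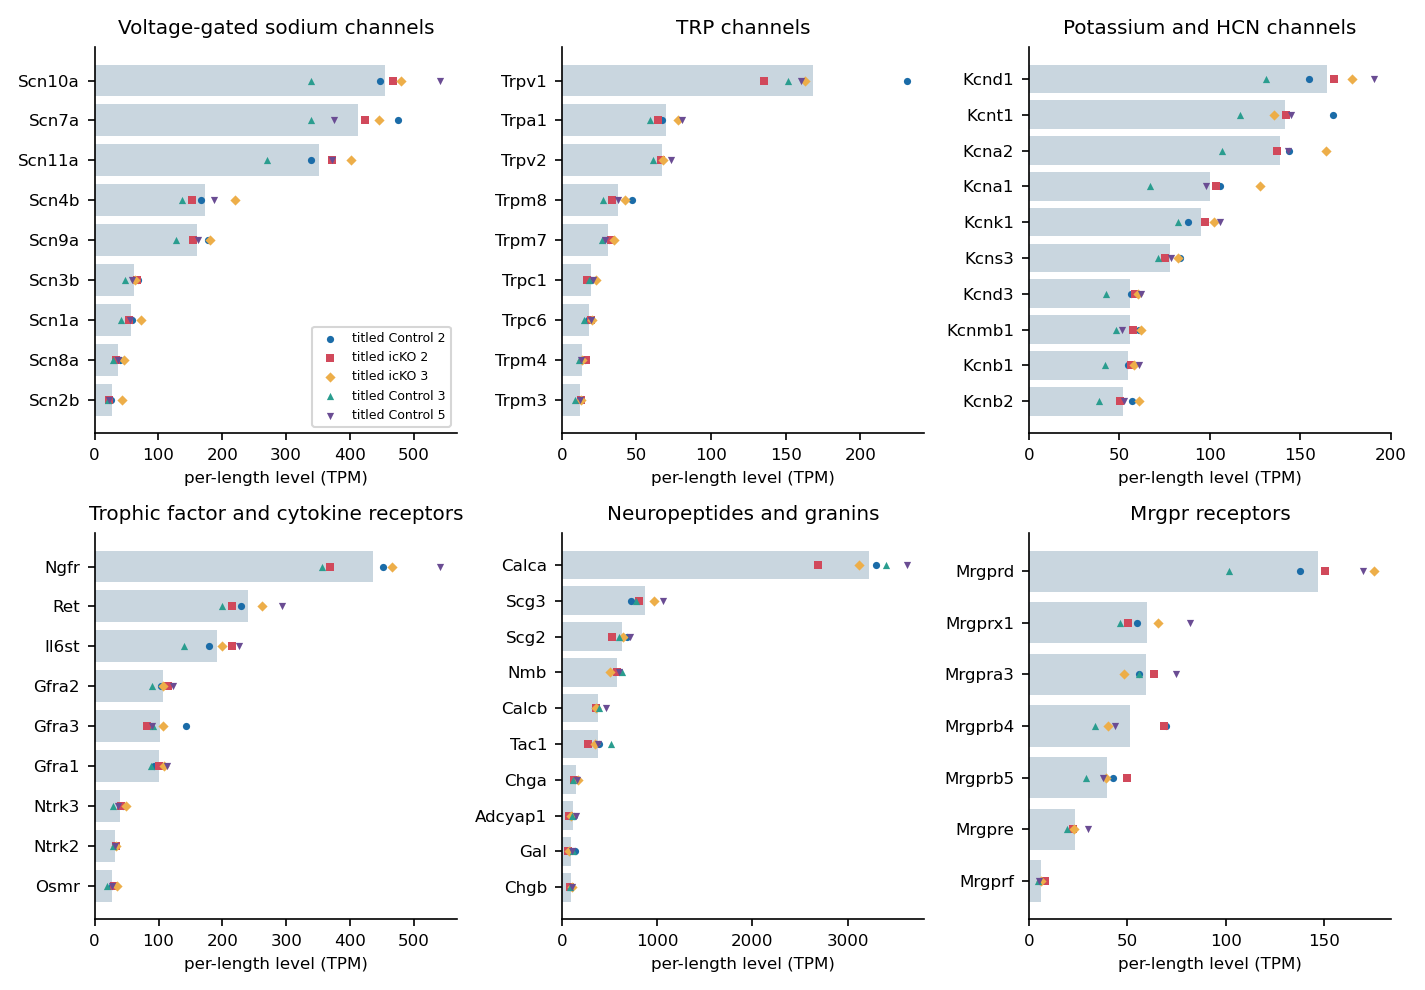
Per-length levels in TPM of up to 10 of the highest members of 6 gene families, some members not being drawn; bars are means of 5 libraries and symbols the libraries by title. Scn10a, Trpv1, Kcnd1, Ngfr, Calca and Mrgprd lead their families, and the points of neighbouring members overlap in most families.

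Receptors of trophic factors act on separate neuron classes. Ngfr, the low-affinity neurotrophin receptor of neurons and glia, stood at 436 ± 75.8 TPM, and Ret, the receptor for the GDNF family, at 239.8 ± 37.9 TPM. Ret read 437, 424, 565, 418 and 486 CPM, highest in Control 5. Of its co-receptors, Gfra2, Gfra3 and Gfra1 stood at 108 ± 12.7, 102 ± 24.4 and 101 ± 10.54 TPM, which differed by less than their SD. Il6st, the shared cytokine receptor subunit gp130, stood at 191 ± 34.1 TPM. Among secreted peptides and granins, Calca was followed by Scg3 with 872 ± 137 TPM, Scg2 with 632 ± 74.2 TPM, Nmb, neuromedin B, with 578 ± 48.3 TPM, and Calcb and Tac1 with 385 ± 47.8 and 383 ± 86.7 TPM. Gal, galanin, which rises after nerve injury, read 31.6, 28.9, 24.3, 15.8 and 15.9 CPM. Npy and Vip, also injury-related peptides, were at 0.344 and 0.0968 CPM, and Iapp is listed at 0.

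Genes of glutamate and inhibitory transmission were detected together. Slc17a6, the vesicular glutamate transporter of these neurons, stood at 167 ± 16.6 TPM, with Slc17a7 at 43.7 ± 9.48 TPM and Slc17a8 at 11.1 ± 2.01 TPM. The kainate receptor gene Grik1 led the glutamate receptors with 179 ± 20.4 TPM, while the NMDA subunit genes Grin2a and Grin2b stayed at 0.0451 and 0.0272 TPM and Grin1 stood at 28.4 TPM. GABA-B subunits Gabbr1 and Gabbr2 stood at 150.5 ± 19.9 and 60.9 ± 10.8 TPM, and 12 of 15 GABA-A subunit genes passed 1 CPM. Opioid receptor genes were low, with 23.9 ± 2.99 TPM for Oprl1, 10.1 ± 2.38 for Oprd1, 7.21 ± 2.2 for Oprm1 and 1.43 ± 0.369 for Oprk1. Htr3a, the serotonin-gated channel, stood at 249.7 ± 37.2 TPM, above Ptgir, the prostacyclin receptor, with 66.96 ± 27.5 TPM. Of nicotinic subunits, Chrna6 led with 99.3 ± 10.8 TPM, and the muscle-type Chrnd and Chrng are listed at 0.

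Glial genes were detected throughout their lists. The 16 genes of myelinating Schwann cells summed to 6163, 6332, 5929, 6891 and 5464 CPM, a CV of 8.53%, and 16 of 16 passed 1 CPM. Pmp22, a component of peripheral myelin, read 1772, 1886, 1667, 1977 and 1593 CPM, highest in icKO 2, and stood at 2619 ± 189 TPM per length. The 13 satellite-glia genes summed to 5222, 6254, 4649, 5326 and 4695 CPM, of which Apoe, also a macrophage gene, made up most. Fabp7, a fatty-acid binding protein of satellite glia, was the least steady of them with 462, 734, 299.6, 455 and 425 CPM, more than 2 times as high in Control 3 as in Control 5. Glul, glutamine synthetase, and Kcnj10, the glial potassium channel, stayed within 233 to 280.4 and 36.3 to 55.2 CPM. The sum of Schwann-lineage genes had the smallest CV of the 3 glial lists, 4.28% against 12.4% for satellite glia. Of its mean of 2859.5 CPM, Scn7a gave 869 CPM and Ngfr, a receptor of neurons and glia, 432 CPM. Both are also counted in other lists, with sodium channels and trophic receptors, so the sum does not describe glia alone. Sox10, the defining transcription factor of the lineage, read 77.96, 63.2, 81.1, 73.9 and 61.8 CPM and S100b 609, 746, 656, 594 and 647 CPM. Gfap, a glial filament gene, was low and varied from 1.31 to 7.29 CPM.

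Connective-tissue sums spread more between libraries than neuronal or glial sums. The 15 fibroblast genes summed to 7619, 11099, 5658, 9443 and 6359 CPM, a CV of 27.8%. Apod, also a gene of Schwann cells, averaged 4775 CPM against 8035 CPM for the whole list, so the sum largely follows this 1 gene. Dcn, the matrix proteoglycan decorin, read 1682, 2236, 1087, 1992 and 1435 CPM. Apod and Dcn were both highest in Control 3. The collagens were highest in icKO 2 instead: Col1a1 read 109, 92.2, 67.4, 171 and 90.2 CPM and Col3a1 140, 139.7, 86.5, 291 and 189.7 CPM. Dpt and Clec3b, which encode matrix-associated proteins of fibroblasts, were lowest in Control 2, with 0.576 against 3.63 to 8.76 CPM and 3.77 against 9.56 to 23.3 CPM in the other 4. The perineurial list summed to 270.3, 201, 158, 278 and 202 CPM, with Cldn1, a tight-junction gene, at 74.2, 55.7, 25.9, 72.7 and 45.4 CPM. Meningeal genes summed to 59.2, 87.6, 46.5, 129 and 72.5 CPM and were highest in icKO 2, as were the collagens, with a mean of 64.4 CPM in the titled controls against 78.98 CPM over all 5.

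Genes of blood endothelium and of mural cells were spread more than general neuronal genes and were highest in the libraries titled icKO. The 14 endothelial genes summed to 258, 379.6, 316, 472 and 479 CPM, a CV of 25.4%, with Control 2 lowest, and the mean of the titled controls was 318 CPM. Pecam1, an adhesion molecule of endothelium, read 23.4, 35.6, 28.8, 49.3 and 53.8 CPM and Vwf, von Willebrand factor, 28.7, 42.6, 38.5, 84.0 and 101 CPM. The 12 genes of pericytes and smooth muscle summed to 359, 318, 345, 537 and 508 CPM, and to 341 CPM on average in the titled controls. Rgs5, a pericyte gene, ranged from 193 to 285 CPM, whereas Acta2, the smooth-muscle actin, was higher in both libraries titled icKO, with 16.1, 16.5, 28.5, 70.03 and 63.8 CPM. The 5 lymphatic endothelium genes were steadier, with sums of 114, 101, 100.2, 127 and 111 CPM and a CV of 9.89%, and in them Control 2 lay above icKO 3.

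**Figure D3:**
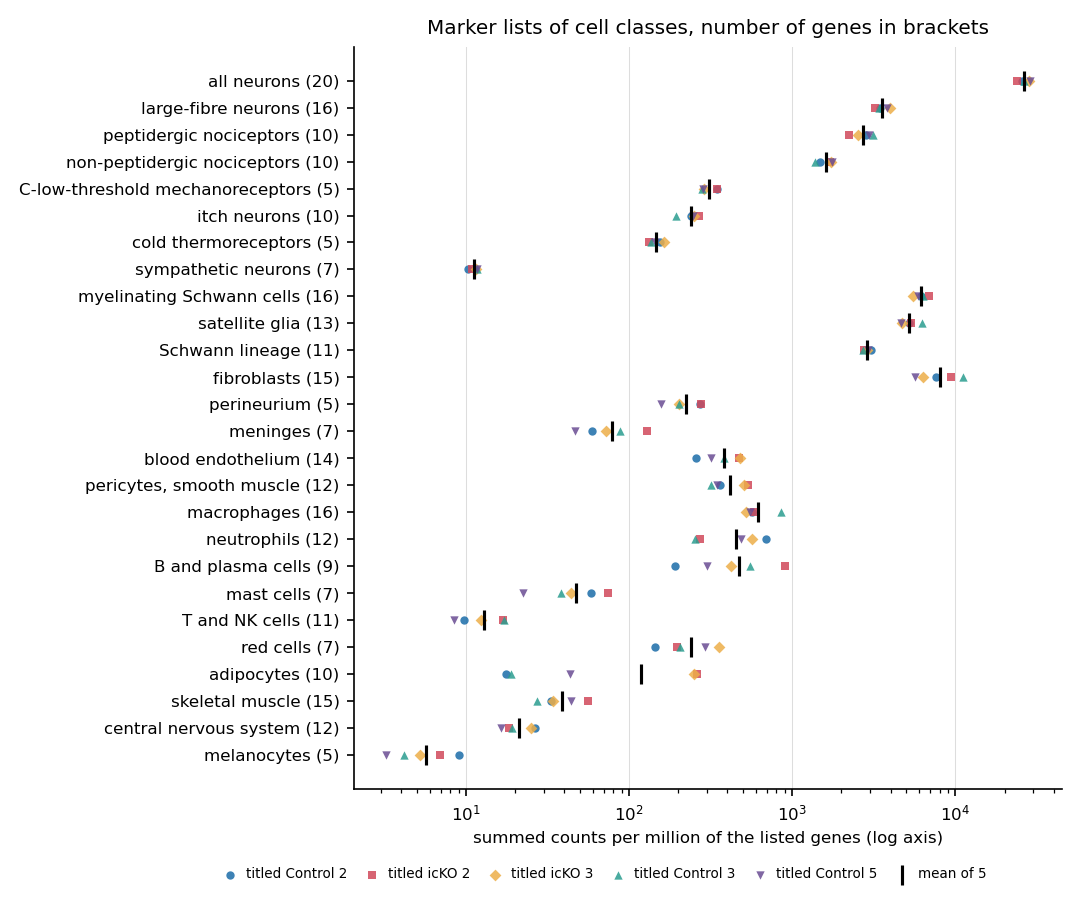
Summed CPM (log axis) of the marker lists of 26 cell classes in the 5 libraries by title, with the mean as a black bar and the number of genes in brackets. Neuronal and glial lists have nearly overlapping points, whereas the lists of adipocytes, B and plasma cells, meninges and mast cells are spread wide; lists differ in size, so sums are not shares of cells.

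Immune genes were present at low to moderate levels. The 16 macrophage genes summed to 565, 855, 551, 587 and 519 CPM, with Control 3 above the other 4. Lyz2, lysozyme, read 202, 341, 237, 206 and 219 CPM, and C1qa, a complement gene of tissue macrophages, 39.4, 76.4, 41.1, 47.9 and 31.9 CPM. Csf1r, the receptor on which macrophages depend, was as high in Control 2 as in Control 3, with 51.8, 51.8, 36.1, 44.1 and 38.3 CPM. Neutrophil genes summed to 689, 254, 483, 270.1 and 564 CPM. The alarmin genes S100a9 and S100a8 read 196, 81.8, 150, 72.9 and 165 and 132, 54.8, 95.3, 50.5 and 104 CPM, highest in Control 2 and lowest in icKO 2. Mpo and Elane, granule genes of immature myeloid cells, read 13.2, 3.42, 10.2, 9.97 and 24.7 and 4.03, 2.33, 4.06, 3.93 and 8.70 CPM and were highest in icKO 3, so the list's members did not share a single order. Red-cell genes summed to 143, 206, 293, 197 and 354 CPM, and Hbb-bs, a beta globin, read 67.5, 103, 149, 92.1 and 174 CPM. The globin copies are nearly identical, so reads are uncertain between them, and the list's median repeated share was 53.2%.

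Antibody genes set the B and plasma cell list apart from the lymphocyte markers. The list summed to 191, 550.4, 302, 898 and 422 CPM, of which Igkc, the kappa light chain, gave 84.2, 253, 139, 597 and 247 CPM. The list's mean was 348 CPM in the titled controls and 473 CPM over all 5. Its B-cell surface markers stayed near 1 CPM, with Cd79a at 1.58 ± 0.238 CPM and Ms4a1 at 1.04 ± 0.579 CPM. Jchain, the joining chain of secreted antibodies, read 28.8, 73.8, 49.2, 205 and 99.9 CPM. T and NK markers were as low, with 8.44 to 17.1 CPM for 11 genes summed. Mast-cell genes summed to 58.2, 38.2, 22.4, 74.1 and 44.1 CPM, among them the chymase gene Mcpt4 with 16.1, 9.67, 4.87, 21.8 and 10.9 CPM, lowest in Control 5.

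Markers of other tissues were low. Skeletal muscle genes summed to 27.3 to 56.0 CPM over 15 genes. Of 12 central nervous system genes, Aqp4, a water channel, with 22.96, 16.5, 11.1, 15.8 and 20.7 CPM and Mobp, a myelin gene, with 2.01 ± 0.942 CPM passed 1 CPM. The oligodendrocyte gene Mog stood at 0.127 CPM, Olig2 at 0.0131 CPM and Chat, the motor neuron enzyme, at 0.0509 CPM. Melanocyte genes summed to 3.25 to 9.08 CPM with Tyr at 0. Dividing-cell genes were low, and 11 of 12 passed 1 CPM, summing to 75.5 to 103 CPM.

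The ganglia also expressed genes that respond to handling or injury. The 21 immediate-early genes summed to 347, 422, 388, 443 and 381 CPM, a CV of 9.43%. Egr1, an activity-induced gene, varied more than the sum, with 19.1, 56.6, 25.2, 37.8 and 31.0 CPM, while Jun read 36.5, 41.9, 38.4, 34.1 and 39.9 CPM and Fos 5.56, 12.7, 9.25, 11.5 and 11.2 CPM. Of 18 nerve-injury genes 14 passed 1 CPM. Atf3, the factor most closely tied to axon injury, read 7.61, 10.7, 20.9, 7.08 and 7.75 CPM, and Sprr1a, another injury gene, stood at 0.936 ± 0.292 CPM. The highest Atf3 level was that of Control 5. Cholesterol-synthesis genes, which myelinating and neuronal cells use heavily, were among the steadiest lists with a CV of 4.43%, and Hmgcs1, an early enzyme of the pathway, read 626, 644, 594, 631 and 618 CPM.

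Most genes differed little between the 5 libraries. Over 10587 genes at a mean of 10 CPM or more, the median CV was 8.49%, against a median of 3.90% for counting error alone. The CV was under 10% in 62.7% of these genes, over 25% in 370 genes and over 50% in 56 genes. In 279 genes (2.64%) the highest library exceeded 2 times the lowest. The biological coefficient of variation that edgeR fitted with no groups was 11.8%, and leaving out any 1 library moved it between 11.1% (without Control 3) and 12.2% (without Control 2). The median CV fell with level from 19.7% at 1 to 10 CPM to 7.76% at 100 to 1000 CPM, and was 10.47% in the 80 genes above 1000 CPM, among them the mitochondrial genes and Apod. Of the 59 lists, 30 had a CV of their sum under 10%, and 3 had one over 50% (adipocytes, B and plasma cells, and the sex-linked genes).

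The 10 steadiest genes included enzymes and a splicing factor. Poglut1, a protein glucosyltransferase of Notch, read 98.4, 98.8, 99.4, 99.3 and 98.7 CPM, a CV of 0.432%, which is below what counting error gives on average at that level. Prpf31, a splicing factor, read 59.2, 58.4, 59.8, 59.3 and 59.4 CPM, Mvk, mevalonate kinase, 50.6, 50.5, 51.3, 51.6 and 50.6 CPM and Tpm1, a tropomyosin, 252, 250.5, 251.3, 255 and 258 CPM. Fam120a, Adam15, Esf1, Rxylt1, Dnpep and Wdr3 complete the 10 lowest, all with a CV of 1.16% or less. Being the extremes of 10587 genes, they were picked for this and carry no test. Hspa8, an abundant chaperone gene, was nearly as steady, with 675, 667, 668, 675 and 687 CPM and a CV of 1.20%.

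**Figure D4:**
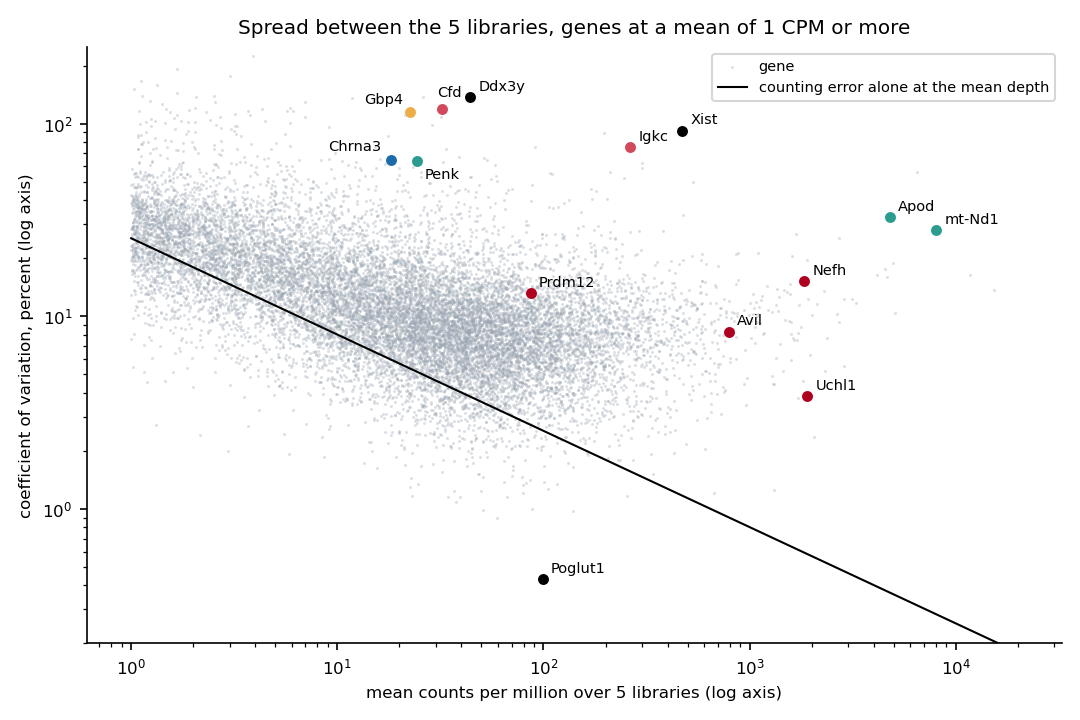
Coefficient of variation over the 5 libraries (percent, log axis) against the mean level (CPM, log axis) for genes at 1 CPM or more; the line is counting error alone at the mean depth. Prdm12, Avil and Nefh lie at 13.2%, 8.32% and 15.2%, Gbp4, Cfd, Igkc, Xist and Ddx3y lie far above the bulk, and Poglut1 lies below the line.

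The 20 most variable genes fell into few groups. Of these, 5 are sex-linked (Eif2s3y, Ddx3y, Uty, Kdm5d and Xist), and the set holds 3 females and 2 males. The other 15 were fat and smooth-muscle genes (Cfd, Car3, Fabp4, Acta2), antibody genes (Igha, Ighg2b, Igkc, Jchain), matrix-associated growth genes (Ccn1, Ccn2), interferon-inducible GTPase genes (Gbp4, Iigp1), the imprinted RNA H19, the nicotinic subunit Chrna3 and Plac9a. Plac9a read 22.2, 95.3, 56.4, 76.8 and 15.4 CPM and H19 33.0, 38.4, 22.2, 109 and 56.2 CPM. The groups below were put together after their values were seen, and describe these libraries only.

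Fat genes separated the libraries by title. The adipocyte list summed to 17.7, 18.97, 43.3, 261 and 249 CPM, and its mean over the 3 libraries titled control was 26.6 CPM against 118 CPM over all 5. Cfd, the adipocyte protease adipsin, read 2.81, 3.42, 7.94, 82.03 and 64.2 CPM, Car3, a carbonic anhydrase of fat and muscle, 4.92, 5.09, 10.6, 69.4 and 69.2 CPM and Fabp4, a fatty-acid carrier of fat and endothelium, 4.03, 6.03, 15.1, 55.01 and 63.2 CPM. Adipoq, adiponectin, which defines fat cells, read 0.767, 0.727, 2.94, 15.2 and 15.03 CPM. Both libraries titled icKO stood above all 3 titled control, and Control 5 stood between. Of 10587 genes at a mean of 10 CPM or more, 7 exceeded 2 times the highest control-titled library in both. They were Cfd, Car3, Fabp4, Acta2, Ccn2, Thbs1 and Filip1l. Slc15a2, a peptide transporter, was the 1 gene under the lowest by the same factor, with 29.4, 33.6, 36.9, 10.6 and 6.51 CPM. The mean used as cut-off includes the libraries titled icKO. Cfd, Car3, Fabp4 and Filip1l averaged under 10 CPM in the 3 titled control, so they passed only through the libraries titled icKO. Plvap, an endothelial gene, was also higher in both libraries titled icKO, with 10.9, 20.6, 16.6, 39.9 and 39.8 CPM. Control 2, the only female titled control, had the lowest adipocyte sum, but 1 library cannot separate sex from title. Neither the part of title nor that of sex in these values was tested.

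Some genes at a mean of 10 CPM or more stood out in a single library, by at least 2 times the next. In Control 2 it was Chrna3, with 38.5 CPM against 8.34 to 17.1 CPM, and its partner subunit Chrnb4, at a lower mean, was likewise high, with 21.9 against 5.75 to 8.58 CPM. Chrna3 marks a peptidergic class of nociceptors that is normally insensitive to mechanical stimuli. Trpv1 with 241 against 143 to 175 CPM and Gfra3, the artemin receptor, with 80.8 against 47.01 to 58.3 CPM were also highest there, while Calca was highest in Control 3. In icKO 2 they were the antibody genes Igkc, Igha, Ighg2b and Jchain, with Igha at 492 against 77.6 to 216 CPM, and Mir6236. Ighm, the heavy chain of IgM, was instead high in Control 3, with 211 against 64.1 to 103 CPM.

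Control 3 differed in a broader way. It was the lowest library in 30.6% of the 10587 genes and the highest in 21.9%, each more often than any other. Its deviation followed gene length. When genes were split by exonic length into 5 equal groups, its median log2 ratio to the mean of the other 4 was 0.11 in the shortest group, up to 2861 bases, and -0.15 in the longest, from 8343 bases. The other libraries stayed between -0.10 and 0.06. Of these, icKO 3 (-0.099 to 0.045), Control 2 (-0.029 to 0.058) and icKO 2 (-0.017 to 0.033) rose from the shortest to the longest group. Each ratio is to a mean that includes Control 3. Short-transcript groups were high there as well: mitochondrially encoded genes, ribosomal protein genes with 0.832% of counts against 0.526% in icKO 3, and Tmsb4x with 3892 against 2125 to 2692 CPM. Penk, which encodes the enkephalin opioid peptides, stood at 51.5 CPM against 13.3 to 21.97 CPM. Among ion channel lists, the sodium, potassium, calcium and TRP sums were all lowest in Control 3. The part of gene length in these results was not tested. Control 5 stood apart in Angptl2, a secreted angiopoietin-like protein, with 65.9 against 27.7 to 31.3 CPM. It was also highest in Atf3, in Bdnf, the neurotrophin, with 84.2 against 28.1 to 44.5 CPM, and in Ptgir with 108 against 39.2 to 62.1 CPM.

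**Figure D5:**
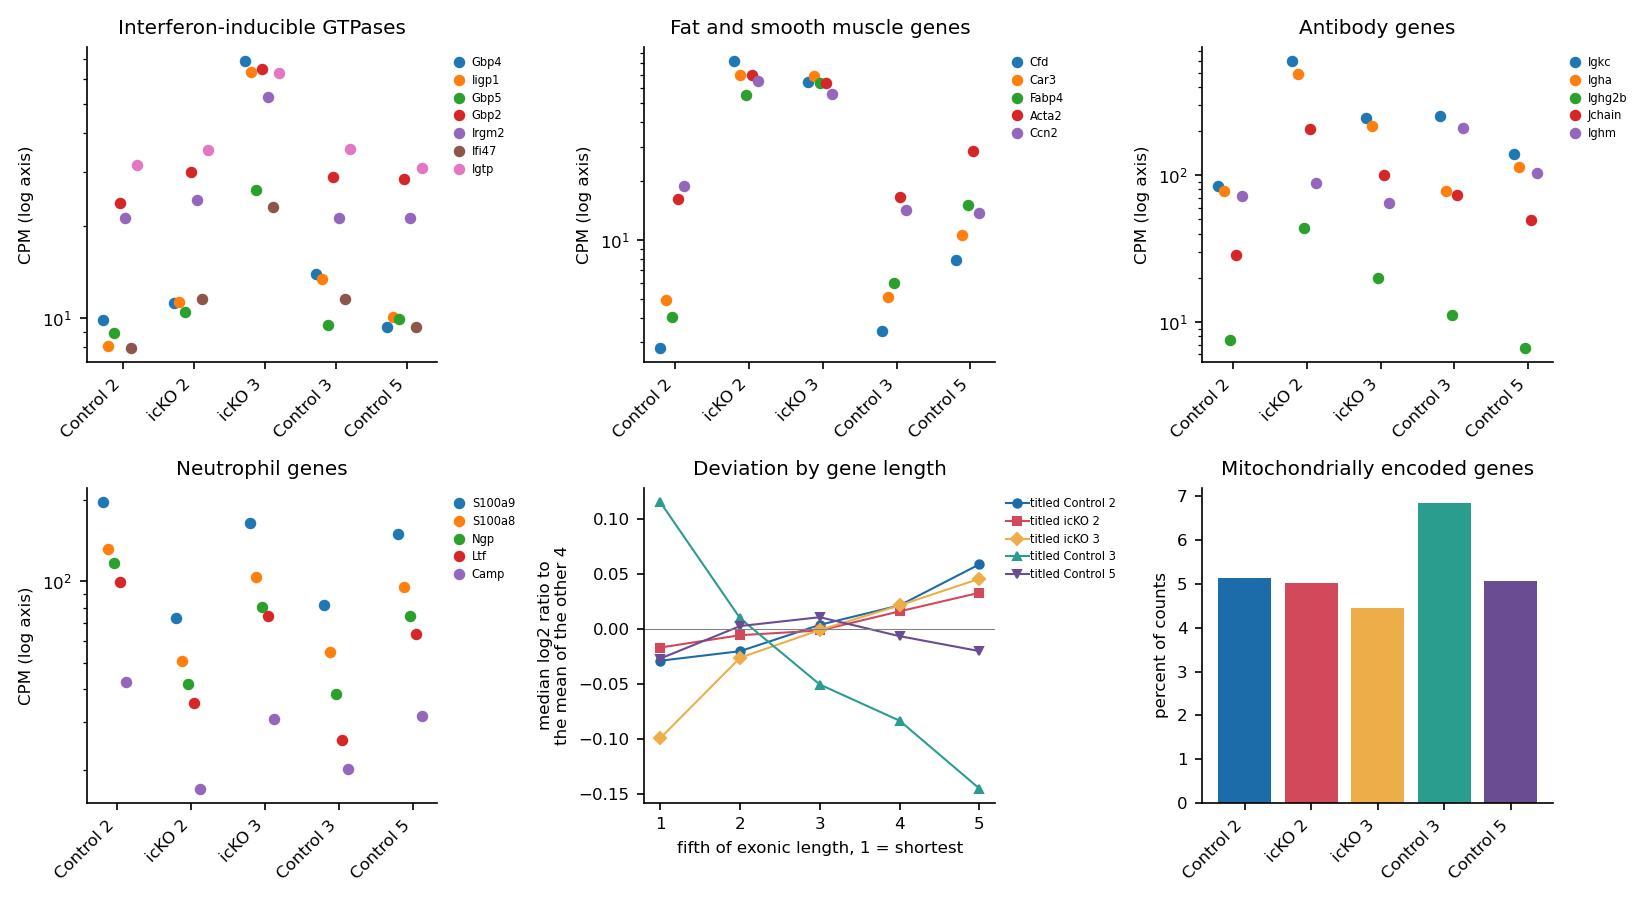
CPM (log axes) in the 5 libraries by title for interferon-inducible GTPase genes, fat and smooth-muscle genes, antibody genes and neutrophil genes, the median log2 ratio of each library to the other 4 by 5 groups of exonic length, and the percent of counts on mitochondrially encoded genes. The library titled icKO 3 is highest for all 7 GTPase genes drawn, both titled icKO are highest for the fat genes, and the line of Control 3 falls from 0.11 to -0.15 with length.

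In the library titled icKO 3, the 6 genes at a mean of 10 CPM or more that exceeded 2 times the next library were all interferon-inducible GTPases, which guard cells against intracellular microbes and are induced chiefly by interferon gamma. Gbp4 read 9.85, 13.9, 9.31, 11.2 and 68.7 CPM, Iigp1 8.06, 13.4, 10.1, 11.3 and 63.2 CPM and Gbp5 8.89, 9.45, 9.94, 10.4 and 26.2 CPM. The last value in each is that of icKO 3 and lies beyond the other 4. Gbp2, Irgm2 and Ifi47 were the others, with Gbp2 at 23.7, 28.9, 28.3, 29.9 and 64.7 CPM. Of 11 such genes at a mean of 10 CPM or more, 11 were highest in icKO 3, by 1.61 to 4.95 times the next library. Of 16 at a mean of 1 CPM or more 15 were, while 18.6% of all 10587 genes had their highest value there. The means include icKO 3, so a gene can pass a cut-off through that library, and Gbp5 stood at 8.89 to 10.4 CPM in the other 4. The family was put together after its values were seen, so these counts describe it and carry no test. The list of 17 general interferon response genes, which holds none of these GTPases, did not stand out in icKO 3 and summed to 678, 721, 683, 667 and 679.6 CPM, a CV of 3.03%, with Isg15 at 9.78, 10.97, 8.56, 8.20 and 6.51 CPM. Among genes at a lower mean, which were not searched in this way, the interferon-gamma-induced chemokine gene Cxcl9 also exceeded 2 times the next in icKO 3, with 0.64, 4.43, 2.19, 4.72 and 22.7 CPM. Ifng, interferon gamma itself, was under the level of 3 counts in every library. The 11 T and NK markers summed to 9.72, 17.1, 8.44, 16.8 and 12.4 CPM, and their part in these values was not tested.

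Because these genes were high together, 4 of their promoters are shown, each from 250 bases before to 50 bases after the start site, from RefSeq on the GRCm38.p6 build, 5′ to 3′ on the gene's strand. Capitals mark the letters GAAANNGAAA on either strand, a pattern of interferon response elements. The windows are chr3:142620413-142620712 for Gbp2, chr3:142496684-142496983 for Gbp5, chr11:58214727-58215026 for Irgm2 and chr11:58199306-58199605 for Igtp, all on the plus strand.

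Gbp2: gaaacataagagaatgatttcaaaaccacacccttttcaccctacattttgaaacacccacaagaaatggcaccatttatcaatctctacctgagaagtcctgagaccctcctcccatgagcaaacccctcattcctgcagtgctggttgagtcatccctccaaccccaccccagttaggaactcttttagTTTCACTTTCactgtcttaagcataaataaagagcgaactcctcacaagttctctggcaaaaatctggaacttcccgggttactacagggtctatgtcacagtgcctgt
Gbp5: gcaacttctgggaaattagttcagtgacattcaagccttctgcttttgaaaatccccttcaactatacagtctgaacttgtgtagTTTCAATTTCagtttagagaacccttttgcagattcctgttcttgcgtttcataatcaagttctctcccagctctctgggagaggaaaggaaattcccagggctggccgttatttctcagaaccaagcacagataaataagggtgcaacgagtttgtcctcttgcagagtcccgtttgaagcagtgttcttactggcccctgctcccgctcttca
Irgm2: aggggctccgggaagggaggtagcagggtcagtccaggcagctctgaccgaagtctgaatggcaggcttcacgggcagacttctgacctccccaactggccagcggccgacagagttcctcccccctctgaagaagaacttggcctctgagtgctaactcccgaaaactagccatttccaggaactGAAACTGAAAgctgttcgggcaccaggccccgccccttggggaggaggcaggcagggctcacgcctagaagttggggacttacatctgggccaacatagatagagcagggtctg
Igtp: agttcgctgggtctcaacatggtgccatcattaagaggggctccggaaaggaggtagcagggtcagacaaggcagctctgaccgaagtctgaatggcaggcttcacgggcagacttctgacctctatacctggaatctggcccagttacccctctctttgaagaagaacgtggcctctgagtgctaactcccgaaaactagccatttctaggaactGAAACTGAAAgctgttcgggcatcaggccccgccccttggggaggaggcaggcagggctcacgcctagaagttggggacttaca

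Promoters were at hand for 8 of the 11 genes, and 7 of these had the pattern in at least 1 (Gbp2, Gbp3, Gbp5, Gbp7, Igtp, Irgm1 and Irgm2, and not Ifi47). Counted by promoter and not by gene, it was present in 3.44% of all 32851 promoters of the table. Around the match the Irgm2 and Igtp sequences are nearly the same, so the genes are not independent occurrences. Gbp4, Gbp9 and Iigp1 are named only. A match of letters describes the sequence and not the binding of a factor. In Gbp2 and Gbp5 it lies on the minus strand and in Irgm2 and Igtp on the plus strand. These 4 genes stood in icKO 3 at 64.7, 26.2, 52.7 and 63.1 CPM, against highs of 29.9, 10.4, 24.3 and 35.5 CPM in the other 4 libraries.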

How the data were processed

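PolyA RNA of 5 ganglion libraries was described with no test between groups, and libraries titled icKO and control are set side by side as values only. The authors deposited raw counts per gene ID, made with bcl2fastq 2.20.0.422, STAR 2.7.8a and featureCounts 2.0.1 on GRCm39, per the submitters' processing notes. No source used here gives the annotation release, strand setting or treatment of multi-mapping reads, and the kit was not stranded per the labels' protocols. Reads of overlapping genes on opposite strands therefore cannot be told apart.

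Of 55416 IDs, 52083 had a name and 52135 an exonic length in GENCODE M21, an annotation of the earlier GRCm38 build used for names, lengths and transcript windows only. CPM are counts over the library total, and TPM were computed from counts over exonic length. Means, SDs and CVs are over 5 libraries, at a mean of 10 CPM or more for the spread. Scaling was also done with TMM (edgeR 4.0.16, R 4.3.3) and DESeq2 1.42.0 size factors. The level of 3 counts covers counting error only. The dispersion fit and the window count were tested on simulated data.

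Members, lists and alternatives were chosen with earlier results of these data known. Named were the 30 highest genes, the highest, lowest or undetected members of each list, the 20 most and 10 least variable genes without predicted genes, the 15 highest per length, and Avil, Prdm12 and Nefh. Other list members and the single-library groups were picked after their values were seen. Some genes are not reported here. The planned comparison of protein sequences among abundant genes was not made. The 15 other libraries of the series were not used.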

Additional observations from a re-analysis of the deposited data

Results flagged for a closer look

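In 36 of 276 values (13.0%), 1 library lay apart from the other 4, its gap to the nearest exceeding 0.71 of the whole range. Some gene groups were entered both as CPM and as percent of counts, and list sums were entered beside their own members, so the values are not independent. Chance gives about 1 in 20 (5%) for separate values. Many of the genes were named because they vary, so the share is a description of the values named and carries no test.

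The library titled icKO 3 gave 15 of them. Its level was above the others for 11 interferon-inducible GTPase genes: Gbp2 (64.7 CPM), Gbp3 (44.3 CPM), Gbp4 (68.7 CPM), Gbp5 (26.2 CPM), Gbp7 (50.9 CPM), Gbp9 (27.3 CPM), Ifi47 (23.0 CPM), Igtp (63.1 CPM), Iigp1 (63.2 CPM), Irgm1 (39.0 CPM) and Irgm2 (52.7 CPM). Cxcl9 (22.7 CPM), the neutrophil elastase gene Elane (8.70 CPM) and Prdm4 (48.5 CPM) were also above, and Nppb (15.2 CPM) was below.

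Control 3 gave 11, counting CPM and percent of counts of the same gene group as separate values. It was above the others in mitochondrially encoded genes (68499 CPM or 6.85% of counts, with mt-Nd1 at 11964 CPM) and in nuclear respiratory chain genes (14408 CPM or 1.44%). It was also above in the macrophage list (855 CPM) and in Lyz2 (341 CPM), Ighm (211 CPM) and Penk (51.5 CPM). Il31ra (14.5 CPM) and Prdm2 (44.0 CPM) were below.

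The remaining values were single genes. Chrna3 (38.5 CPM) and Chrnb4 (21.9 CPM) were above in Control 2. Angptl2 (65.9 CPM), Atf3 (20.9 CPM), Fam120a (141 CPM) and Trpv2 (93.7 CPM) were above in Control 5. In icKO 2, Mir6236 (417 CPM) and Gapdh (105 CPM) were above, Thy1 (530 CPM) was below, and Olig2 had its only count (0.0656 CPM), under the level of 3 counts.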

How the results depend on the processing

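Of the 58 list sums (all lists but the sex-linked genes), 58 moved by less than 1 SD under TMM scaling and under DESeq2 size factors. A median over the 5 libraries, or a mean of 3 of them, cannot move by 1 SD or more, so these settings are given as ratios. Sums came to 0.226 to 1.09 times the mean of 5 with only the 3 libraries titled control, and to 0.367 to 1.07 times as a median. The adipocyte sum was 26.6 CPM in the titled controls and 43.3 CPM as a median, against 118 CPM. Scaled to the library total without mitochondrially encoded genes, 50 sums moved by less than 1 SD and 8 by more, all 58 by a factor of 1.05 to 1.06. Per kilobase, sums moved for 42 lists, by construction of the scale: to 36551 for all neurons, 8135 for satellite glia and 1466 for macrophages. Counting genes with 1 count or more in any library gave 32838 in place of 15751. Without mitochondrially encoded genes the 100 highest held 16.3% of counts. Leaving out each library in turn gave 82.8 to 89.0 CPM for Prdm12, 15683 to 15780 genes at 1 CPM or more, 19.7% to 20.2% of counts in the 100 highest genes and a median CV of 7.38% (without Control 3) to 8.58%. It gave summed levels of 25957 to 27111 CPM for all neurons, 4973 to 5375 CPM for satellite glia, 5972 to 6329 CPM for myelinating Schwann cells, 7269 to 8630 CPM for fibroblasts and 555 to 639 CPM for macrophages. The 5 libraries bound the precision of every SD, and the level of 3 counts is a chosen mark and not a measured limit of detection. No paired analysis was possible because the results come from no test and from 1 set of libraries.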
